A study of Mus musculus with 2 samples.

Results

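Of the 1797 circular RNA (circRNA) probes on a mouse circRNA array, 98 gave at least a 2-fold higher signal in long-term haematopoietic stem cells (LT-HSC) than in multipotent progenitors (MPP) and stood above the negative probes in both populations. These 98 LT-HSC-higher probes were chosen by their measured values. A probe had to exceed, on each array, the 95th percentile of the 40 probes named as negatives (called the negative level here), and its scaled log2 signal had to be higher by 1 or more in LT-HSC. The 413 circRNA probes above the negative level on both arrays are the set they came from, so 23.7% of that set is LT-HSC-higher. By the same rule another 82 probes (19.9%) were higher in MPP by 2-fold or more, and 233 lay within 2-fold.

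Both populations were sorted from flushed bone marrow of WT C57/BL6 mice aged 8 weeks, with no treatment. The labels give neither the surface markers of the sort nor the number of mice or cells. Total RNA was digested with RNase R, labelled with Cy3 and hybridised to 1 single-colour array per population. With 1 array per group no difference had a replicate check and no test was possible; errors are SDs over the spots of a probe, which are technical. Each array has its own scan day, so scan day and population cannot be told apart. The same mass of labelled RNA went onto both arrays, so a signal is a share of that RNA: more cells that hold a circRNA and more of it per cell cannot be told apart. Of 35 marker genes of LT-HSC, MPP and other marrow cells that were looked up, only the B-lineage gene Mzb1 had a probe, so the 2 cell labels could not be checked against defining markers. Mzb1 gave a signal of 79.5 in LT-HSC, below the negative level there, and 172 in MPP.

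LT-HSC are rare, mostly quiescent cells that can rebuild the whole blood system after transplantation, whereas MPP divide more and sustain it only for a limited time. A circRNA forms when the splicing machinery joins the end of an exon to the start of the same or an upstream exon. The closed circle has no free ends for exonucleases such as RNase R, which is why digestion enriches it, and in cells circRNAs are typically long-lived. Some are known to bind microRNAs or proteins, and for most the function is not known. The probe identifiers are not paired with a circRNA or a host gene in the tables used here, and probe sequences are not used here. The members are therefore described by their values, and by identifier only for the member with the largest difference and the member with the highest LT-HSC signal.

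In LT-HSC the 98 members had processed signals between 171 and 7827, with a median of 601. In MPP the range was 54.8 to 1323 and the median 138, and the ranges of both arrays overlap. The negative level stood at a signal of 121 in LT-HSC and 54.3 in MPP. Signals were compared between arrays after subtracting each array's 75th percentile over all circRNA probes, which was 7.08 in LT-HSC and 6.47 in MPP on the log2 scale. After this scaling the members' differences, LT-HSC minus MPP, had a median of 1.39 and ran from 1.02 to 2.99. All 413 probes above the negative level had a median difference of 0.20. The rule fixes the direction of the members, so these values are a description.

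**Figure D1:**
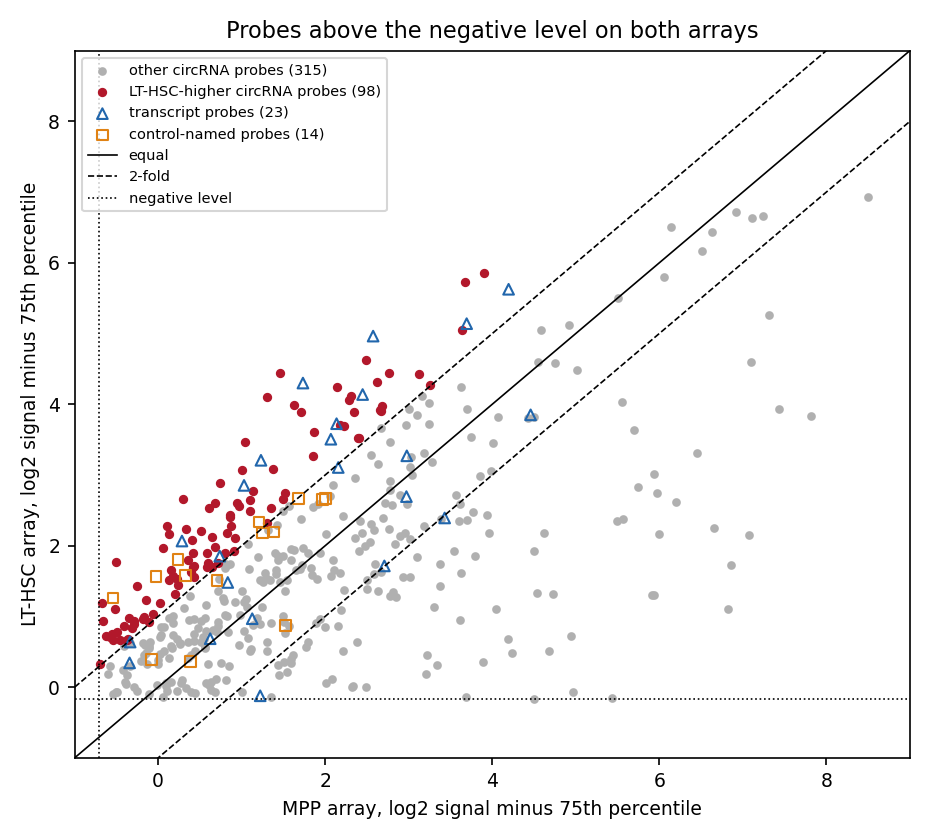
Scaled log2 signal on the MPP array (x axis) against the LT-HSC array (y axis) for each probe above the negative level on both arrays, with 98 LT-HSC-higher circRNA probes in red, 315 other circRNA probes in grey, 23 transcript probes as triangles and 14 control-named probes as squares. Dotted lines mark the negative levels, at -0.16 in LT-HSC and -0.71 in MPP, and the red points reach a scaled level of 5.85 in LT-HSC.

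Most of the differences were modest. The fold was between 2 and 3 for 64 of the 98 members and between 3 and 4 for another 20. The remaining 14 members were at least 4-fold higher (3.39% of the 413), of which 12 lay between 4 and 6 and 2 between 6 and 8. At least 3-fold higher were 34 members, or 8.23% of the 413. The opposite direction had a longer tail. Of the 82 probes higher in MPP, 27 were past 8-fold and the largest reached 53.0-fold, whereas the largest fold among the LT-HSC-higher probes was 7.92.

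Probe ASCRMP001446 had the largest difference. Its 7 spots on the LT-HSC array gave processed signals from 2897 to 3055, and its 6 spots kept on the MPP array gave 238 to 253, so the spots of both arrays lie far apart. The difference was 2.99, or 7.92-fold, with an SD of 0.02 over 6 shared positions. In the authors' deposited table the same probe has log2 values of 11.94 and 8.37. Probe ASCRMP000500 had the highest LT-HSC signal among the members and ranked 15th by difference. Its 6 spots kept on the LT-HSC array gave 7585 to 8152, and its 7 spots on the MPP array gave 1281 to 1349. The difference was 1.95, or 3.87-fold, with an SD of 0.05 over 6 shared positions. A seventh LT-HSC spot of ASCRMP000500, at 6189, was marked as an outlier and left out; with outlier spots kept the difference was 1.89. Signal depends on the probe as well as on the RNA, so the high signal of ASCRMP000500 does not rank its circRNA against others.

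The member ranked second was also past 6-fold, with a signal of 2333 in LT-HSC against 218 in MPP (difference 2.81, SD 0.08 over positions). The next 12 members, all between 4-fold and 6-fold, had LT-HSC signals from 463 to 7157 and MPP signals from 62.7 to 1131. Among these 12, 3 had an MPP signal within 2-fold of the negative level, where the size of a fold is least certain. Members between 2-fold and 3-fold had a median signal of 450 in LT-HSC and 126 in MPP, and 26 of those 64 were within 2-fold of the MPP negative level.

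Differences of the members recurred across the surface of the arrays. Each circRNA probe is printed at 7 positions, the same on both arrays. The lowest LT-HSC spot lay above the highest MPP spot for 98 of 98 members, against 49.9% of the 413 probes; the gap between those spots ran from 0.77 to 2.90. Over 656 position pairs of the members, every difference was positive, the lowest being 0.80, and 633 (96.5%) were 1 or more. A positive difference at every shared position was found for 98 members, against 52.1% of the 413. The rule fixes most of this, because the mean over the same spots chose the members. At every position the difference was 1 or more for 87 members (21.1% of the 413 are such probes), and the 11 others were all between 2-fold and 3-fold. The median SD over positions was 0.06 for the members and 0.07 for the 413. Split into 4 bands of rows across the array, the members' median difference was 1.44, 1.43, 1.39 and 1.31, while that of the 413 stayed between 0.17 and 0.21. These errors hold spot noise and no variation between arrays, sorts or mice.

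**Figure D2:**
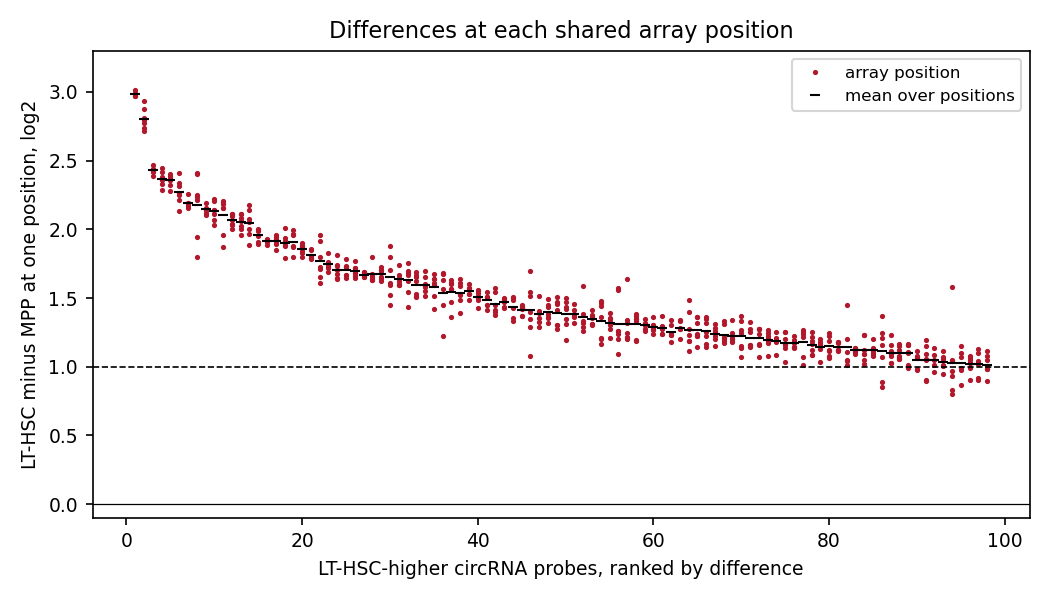
Difference between LT-HSC and MPP (log2 after scaling, y axis) at each shared array position for the 98 LT-HSC-higher circRNA probes, ranked by difference (x axis), with black bars for the mean over positions. All 656 points lie above 0, and the lowest is at 0.80.

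The values run through the threshold without a gap. The 3 members nearest to 2-fold had differences of 1.02, 1.02 and 1.02, with signals of 2628, 514 and 678 in LT-HSC and 848, 166 and 220 in MPP. The 3 probes just outside had differences of just under 1.00, 0.99 and 0.99, with signals of 761, 796 and 211 in LT-HSC and 250, 262 and 69.5 in MPP. The steps between these values are smaller than the SD over positions, which was 0.02 to 0.08 for these 6 probes. That SD is the spread of single positions and not the error of a mean over them.

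The filter on dim probes did not treat both directions alike. After scaling, the negative level lay at -0.16 in LT-HSC and at -0.71 in MPP, so a probe exactly at both levels would already differ by 0.55 towards LT-HSC. In MPP, 21 of the 98 members had a scaled level at or under -0.16. With -0.16 required on both arrays, an alternative added after the data were seen, 374 probes remained, with 77 past 2-fold towards LT-HSC and 82 towards MPP. Sorted by mean scaled signal into 5 bins, the lowest held 20 LT-HSC-higher probes and 0 MPP-higher probes of 83. In the highest bin the counts were 17 and 30 of 83. A level above all 40 negative-named probes on both arrays left 170 probes, with 23 past 2-fold towards LT-HSC and 56 towards MPP.

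Above the negative level on both arrays, most transcript and control-named probes also differed towards LT-HSC. The RNA was digested with RNase R, so signals of linear transcript probes do not give transcript levels in the cells. Of 50 probes that carry the accession of a linear transcript, 23 were above the negative level on both arrays. Their differences ran from -1.34 to 2.57 with a median of 0.97, and 11 of the 23 (47.8%) were past 2-fold towards LT-HSC and 2 towards MPP, beside 23.7% of the circRNA probes. Another 14 control-named probes, 12 of them the array manufacturer's, were above that level with a median of 0.87, and 5 of the 14 were past 2-fold towards LT-HSC and 0 towards MPP. Over all 37 such probes the median was 0.95, with 29 positive. Without the filter, all 182 probes outside the circRNA set, negative-named ones included, had a median of 0.32, and 101 of them were positive. The bright-corner spots of the scan grid are not among these 182 probes and stood at -1.70. Without the filter, the 50 transcript probes had a median of 0.71, with 35 positive. The manufacturer's 57 control probes had a median of 0.28, with 31 positive. The 18 ERCC-named and 14 circRNA-control-named probes had unfiltered medians of -0.12 and -0.18, with 8 and 5 positive. The filter itself leans by 0.55 towards LT-HSC for a probe at both negative levels. The rule places every member above the transcript median of 0.97, and 2 members exceeded the highest transcript difference of 2.57. None of the 40 negative-named probes was above the negative level on both arrays. Their highest difference was 2.89, which 1 member exceeded. Among probes above the negative level, a shift of transcript and control-named probes thus stands beside the members' differences. Its part in them was not tested. When the arrays were centred on the transcript probes, 14 circRNA probes remained past 2-fold towards LT-HSC, while 174 were past it towards MPP. The members' differences then ran from 0.04 to 2.01. Centred on the 40 negative-named probes, whose median difference was 0.31, 58 of the members stayed past 2-fold and 101 probes were past it towards MPP.

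**Figure D3:**
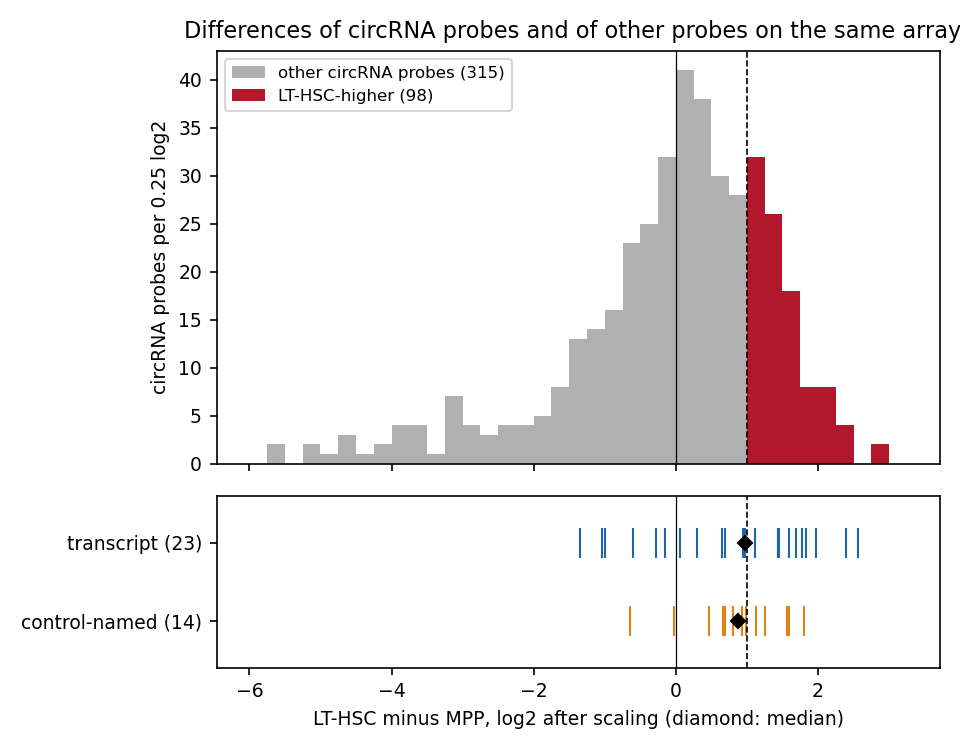
LT-HSC minus MPP differences (log2 after scaling, x axis), as a histogram of the 413 circRNA probes above, with the 98 LT-HSC-higher probes in red, and as ticks for 23 transcript and 14 control-named probes below. Diamonds mark medians of 0.97 and 0.87, close to the dashed 2-fold line.

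Which direction held more probes depended on the scaling, and the members shared this dependence. LT-HSC held 54.4% of the 2-fold calls as reported. It held 65.8% with quantile normalization (129 against 67) and 68.5% with the 75th percentile taken over the 413 probes (135 against 62). It held 50.3% with median centring (89 against 88) and 45.0% with lowess (72 against 88). It held 36.5% when centred on negative-named probes and 7.45% when centred on transcript probes. The median of the 413 probes moved by 0.20 with quantiles, 0.31 with that percentile, -0.09 with median centring, -0.24 with lowess, and -0.31 and -0.97 when centred on negative-named and transcript probes. No member turned negative under these scalings, but shifts by a single value of less than 1 cannot turn a probe chosen for a difference of 1 or more. Quantile normalization kept 97 of the 98 past 2-fold, median centring 89 and lowess 66. Normexp background correction kept 72, with 77 of 414 probes past 2-fold towards LT-HSC. Spot median minus local background kept 88, with 92 of 414 past it.

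**Figure D4:**
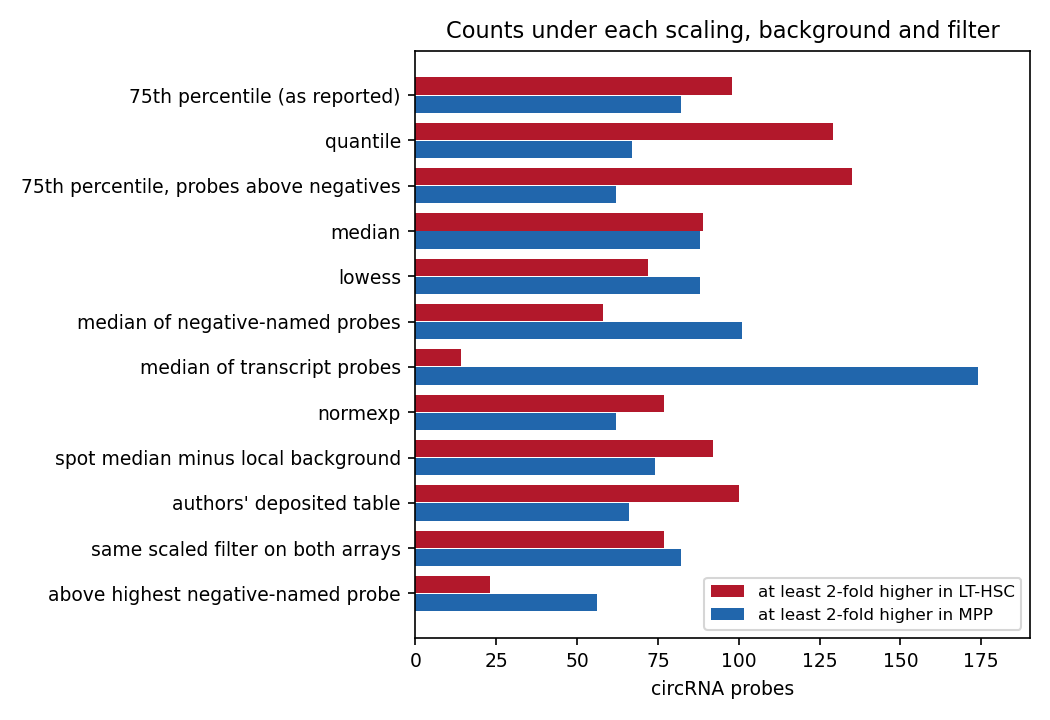
Number of circRNA probes (x axis) past 2-fold towards LT-HSC (red) or MPP (blue) under 12 settings (rows): 7 scalings, 3 other sources of values and 2 stricter filters; looser filters are not drawn. Among the settings drawn, the LT-HSC count ranges from 14 when centred on transcript probes to 135 with the percentile over probes above the negative level, and is 98 as reported.

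The authors' deposited table, made from the same arrays, holds 95 of the 98 members. All 95 are higher in LT-HSC there (61.1% of the 401 probes it holds from the 413 are), and 80 are at least 2-fold higher. The other 15 members lie from 0.68 to just under 1.00 on the log2 scale. Of all 401, 100 probes (24.9%) are past 2-fold towards LT-HSC in that table. Of those 100, 20 are not members, and their scanner differences run from -0.20 to just under 1.00. The deposited difference of the members has a median of 1.37 and reaches 3.57. The gap between both sources followed signal. The members were split at their median by mean scaled signal over both arrays. For 48 on the dimmer side the deposited difference was smaller than the scanner difference in all 48 (median change -0.18), and 33 were past 2-fold. For 47 on the brighter side it was larger in 43 (median change 0.19), and 47 were past 2-fold. Normexp likewise lowered all 49 of the dimmer members, by a median change of -0.29, and left 24 of these past 2-fold.

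**Figure D5:**
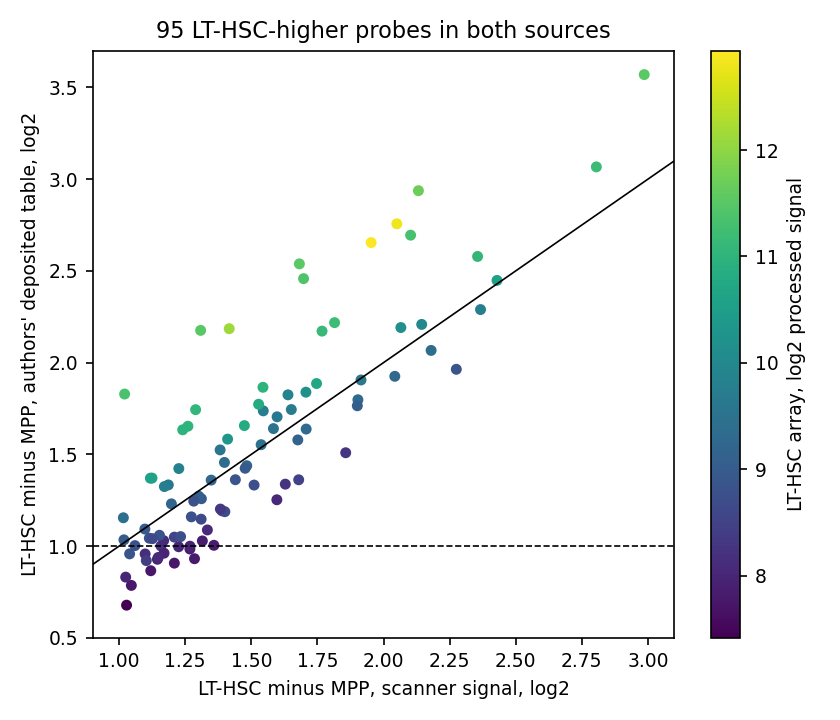
LT-HSC minus MPP difference from the scanner signal (x axis, log2) against that in the authors' deposited table (y axis, log2) for 95 LT-HSC-higher probes, coloured by log2 signal on the LT-HSC array. All points lie above 0, with 80 at or above the dashed 2-fold line and 15 below it, and of the 47 members with the higher mean signal 43 lie above the line of equality.

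Members differed in how many settings they passed, counted after the values were seen. Over 12 settings (4 scalings of the circRNA probes, 3 background corrections, 4 ways of using spots and the authors' deposited table), 63 members were at least 2-fold higher and passed the filter each time. They included ASCRMP001446, ASCRMP000500 and 13 of the 14 members past 4-fold; the other member past 4-fold is not in the deposited table. By fold, 31 of the 64 members between 2 and 3 and 19 of the 20 between 3 and 4 were among them. Their median MPP signal was 178, against 84.7 for the 35 others. Centring on transcript or negative-named probes was not among these 12 settings. All 12 reuse the same 2 arrays on which the members were chosen, so some passes were fixed in advance. With the percentile over probes above the negative level, all 98 passed by construction, the lowest at 1.33. Members of larger fold lie further from the threshold, so the rise with fold follows in part from the rule.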

How the data were processed

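The authors' scanner files hold spot intensity values made with Agilent Feature Extraction 11.0.1.1, per the file headers; the processed signal is background-subtracted and detrended within each array. Over the members' spots it departed from the background-subtracted signal on the MPP array only (ratio 0.93 to 1.05). The authors' deposited table holds log2 values for 1136 probes; neither labels nor headers state their log base or normalization. They follow the scanner's log2 spot median minus local background with a Pearson r of 1.00 and slopes of 1.00 and 0.95, so the scale is log2 by this match, not centred. The column medians were 6.49 and 6.54.

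Spots marked as outliers were dropped and log2 processed signals averaged per probe; no spot was saturated. Named members were to be the member with the largest difference and the one with the highest LT-HSC signal if no table named the probes. The members, lists and rules were chosen with earlier results of these data known. The computation was tested on simulated data built from the LT-HSC array, with its measured spot noise. Differences between the arrays in noise or negative level were not simulated. Normexp (offset 50, on spot medians) used limma 3.58.1 in R 4.3.3; other steps used Python 3.11.15, numpy 2.4.6, pandas 2.3.3 and statsmodels 0.14.6. Transcript accessions matched RefSeq genes of GRCm38.p6 for 44 of 50 probes. The number of arrays limits the precision.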

Additional observations from a re-analysis of the deposited data

How the results depend on the processing

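No paired analysis was possible because LT-HSC and MPP have 1 array each, and for the same reason none was left out. Centring on transcript or negative-named probes, an equal scaled filter and the background-subtracted signal were chosen after seeing the data. The LT-HSC count of 98 became 23 above the highest negative-named probe, 339 above the median one, 254 with the scanner's flag, 373 without a filter, 14 centred on transcript probes and 58 on negative-named probes; at 1.5-fold, 3-fold and 4-fold it was 150, 34 and 14. The MPP count of 82 became 248, 219 and 409 with the median negative, the flag and no filter, 174 centred on transcript probes, and 51 and 42 at 3-fold and 4-fold. The members' median difference of 1.39 became 1.66 with quantiles, 1.30 with median centring, 1.70 with the percentile over probes above the negative level, 1.20 with lowess, 1.25 with normexp, 0.41 centred on transcript probes and 1.08 on negative-named probes. Where the filter changed, the median over the probes then chosen was 1.54 (highest negative), 1.54 (median negative), 1.48 (flag) and 1.54 (no filter). The median of the 37 transcript and control-named probes became 1.28 with quantiles. ASCRMP001446 ran from 2.01 to 3.80 and ASCRMP000500 from 0.98, centred on transcript probes, to 2.79 with quantiles. Neither of these probes changed direction, which their selection for a high LT-HSC signal or difference made unlikely. The median of all probes above the negative level, 0.20 as reported, turned to -0.04 with lowess and -0.11 centred on negative-named probes. It was -0.77 centred on transcript probes and -0.38 above the highest negative-named probe. Without a filter, the median of all 1797 circRNA probes was -0.14, with 831 positive. Filters and fold thresholds change the number of probes by construction; other causes were not tested.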

Other observations

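The filter also left out circRNA probes with a difference towards LT-HSC. A further 68 probes were above the negative level on the LT-HSC array only, and 62 of these had a measured fold of at least 2, with a median of 3.74 and a maximum of 11.7. Their MPP signals, from 8.78 to 54.0, lay below the negative level, so the folds are uncertain. Set against the MPP negative level in place of the dim signal, 39 of them stayed past 2-fold towards LT-HSC, by 2.08-fold to 7.58-fold. In the other direction 151 probes were above the negative level on the MPP array only. Of these, 107 had a measured fold of at least 2 towards MPP, and 47 did against the LT-HSC negative level. The choice of probes sets part of both counts. A probe above the level on the LT-HSC array only must differ by more than 0.55 towards LT-HSC. One above it on the MPP array only need not differ towards MPP. Without a filter, 373 of all 1797 circRNA probes were past 2-fold towards LT-HSC and 409 towards MPP.

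The bright-corner spots that the manufacturer prints to align the scan went against the median of the other control-named probes above the negative level. They averaged 13.33 in LT-HSC and 14.43 in MPP (log2 of the processed signal), a scaled difference of -1.70, whereas the 14 control-named probes had a median of 0.87. They were singled out after their values were seen.

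Member probes were spread over the identifier numbers, from 7 to 1794. Of the 214 probes above the negative level with a number under 900, 40 (18.7%) were LT-HSC-higher, and of the 199 from 900 on, 58 (29.1%) were. No label or header says what the numbering follows, and the split point was chosen after the values were seen.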
